A study of Mus musculus with 8 samples.

Results

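The genes of the cytosolic ribosome were examined in whole lungs of CC-LR mice, in which Cre at the club cell secretory protein (CCSP) locus switches on LSL-K-ras G12D in the airway epithelium, on a C57BL/6 background. All mice carried both alleles and were aged 14 weeks. The Control group held 4 mice, and 4 others received TTI-101, a small molecule that selectively inhibits STAT3, for 4 weeks. Each mouse gave 1 RNA-seq library. Mutant K-ras is driven in the epithelium only, whereas the RNA came from all cells of the lung. Members were the protein-coding genes whose symbols begin with Rpl or Rps and a digit, together with Rplp0, Rplp1, Rplp2 and Rpsa, without the Rps6k kinases and without pseudogenes. This rule found 86 of the 54532 genes, of which 52 carry large subunit names and 34 small subunit names. Of these genes, 77 encode a protein of the cytosolic ribosome under its standard name. The other 9 are paralogs or further names (Rpl3l, Rpl7l1, Rpl10l, Rpl22l1, Rpl36al, Rpl39l, Rps27l, Rps27rt and Rps19bp1, the last of which encodes a binding partner of a ribosomal protein).

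The cytosolic ribosome translates nuclear-encoded mRNAs. Its large subunit forms peptide bonds and its small subunit decodes the mRNA, and each ribosomal protein is needed in about the amount of its partners. Most ribosomal protein mRNAs start with a C followed by a run of pyrimidines, the 5′ terminal oligopyrimidine (TOP) tract, through which mTORC1 and Larp1 control their translation. Ribosome production is tied to cell growth, and secretory and dividing cells of the lung epithelium need many ribosomes.

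Of the 86 members, 66 had a promoter in the RefSeq table of GRCm38.p6, and the windows below are shown because they differ in the TOP tract and because the genes recur in the results. Each window runs from 45 bases before to 20 bases from the annotated start, 5′ to 3′, and capitals mark a C followed by at least 4 C or T bases within 5 bases of that start.
Rpl38, chr11:114668535-114668599, plus strand: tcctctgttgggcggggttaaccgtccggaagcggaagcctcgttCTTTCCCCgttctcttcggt
Rps24, chr14:24490633-24490697, plus strand: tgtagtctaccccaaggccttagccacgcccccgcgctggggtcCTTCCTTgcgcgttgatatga
Rps15a, chr7:118116128-118116192, minus strand: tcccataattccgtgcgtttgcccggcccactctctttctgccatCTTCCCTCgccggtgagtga
Rps27, chr3:90213629-90213693, minus strand: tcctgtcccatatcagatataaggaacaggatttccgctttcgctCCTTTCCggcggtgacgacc
Rps6, chr4:86857348-86857412, minus strand: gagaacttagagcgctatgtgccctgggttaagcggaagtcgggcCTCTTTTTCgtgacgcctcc
Rpl11, chr4:136053374-136053438, minus strand: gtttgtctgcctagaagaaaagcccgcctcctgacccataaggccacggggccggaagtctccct
The first 5 windows hold such a tract, and that of Rpl11 holds none within 5 bases of the annotated start. The start used in these lungs was not measured, so a window without the tract does not show that the mRNA lacks it. Rps24 has another entry in the table, with a start farther downstream, which holds none. Among the 66 promoters, 14 (21.2%) had the tract exactly at the annotated start, compared with 3.01% of the 27025 genes in the table. Allowing 5 bases on either side, 30 (45.5%) had it, compared with 21.2% of all genes. The motif CCGGAAG, the core bound by ETS factors such as GABP, was found on either strand of 26 member promoters of 300 bases (39.4%, against 9.93% of all genes). It can be read in the windows of Rpl38 and Rpl11. AAGATGG, part of the motif of YY1, was in 10 (15.2%, against 7.28%). The motifs overlapped in 2 of 78 member promoter entries, since some genes have several.

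Ribosomal protein genes took 2.42%, 2.70%, 3.44% and 3.27% of all counts in Control mice 1 to 4. In TTI-101-treated mice 1 to 4 they took 2.47%, 2.86%, 2.60% and 2.26%. The means were 2.96% ± 0.479 in Control and 2.55% ± 0.251 in TTI-101-treated lungs (SD, n = 4 each), a difference of -0.413 percentage points. Control mice 3 and 4 lay above the other 6 mice, whereas Control mice 1 and 2 lay within the range of the treated mice. In bulk lung, fewer cells with many ribosomes and less ribosomal protein mRNA per cell cannot be told apart.

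Large subunit genes took 1.38%, 1.53%, 1.97% and 1.89% of counts in Control and 1.41%, 1.63%, 1.49% and 1.28% in TTI-101-treated mice. Small subunit genes took 1.04%, 1.17%, 1.47% and 1.38% in Control and 1.07%, 1.23%, 1.11% and 0.979% in treated mice. Both subunits therefore ranked the mice alike at the top, with Control mice 3 and 4 highest. Per kilobase of gene model, the log2 ratio of large to small subunit counts was 0.43 ± 0.016 in Control and 0.43 ± 0.033 in TTI-101-treated lungs (SD, n = 4 each). It ranged from 0.42 to 0.45 and from 0.39 to 0.46, so the groups overlapped and the balance between the subunits differed by less than its spread between mice.

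**Figure D1:**
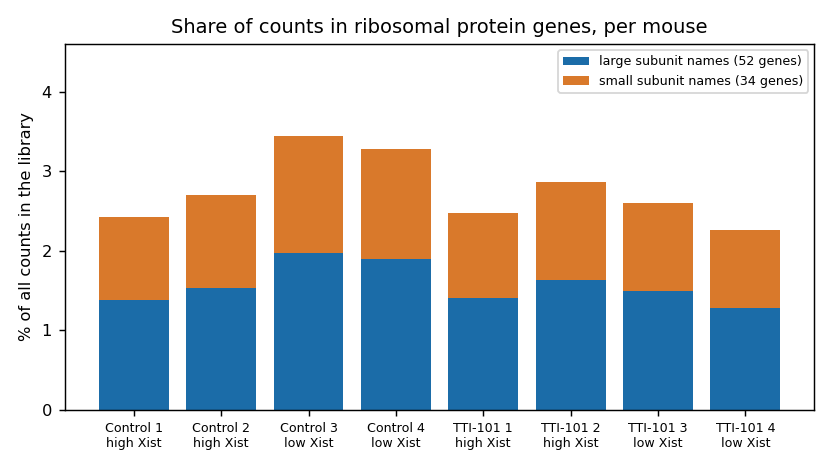
Share of all counts (percent, y axis) in ribosomal protein genes for each of the 8 mice (x axis), stacked by large and small subunit names, with the Xist class of each library under its name. Control mice 3 and 4 stand at 3.44% and 3.27%, above the other 6 mice at 2.26% to 2.86%.

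The libraries held 16446481 to 26873509 counts in Control and 16075855 to 25920509 in TTI-101-treated mice. Expression is given below in CPM, with libraries scaled by edgeR's TMM factors. Each library held at least 32690 CPM of alveolar type 2 and 16930 CPM of club cell markers, as summed over the lists described last. Control mouse 4 stood apart, with 5.56% of counts in mitochondrial genes (2.01% to 2.85% in the other 7) and a first principal component of 101 (-39.3 to 17.9 in the others). Xist, the RNA that coats the inactive X chromosome of females, was at 400.2 to 449.6 CPM in replicates 1 and 2 of each group and at 0.167 to 2.11 CPM in replicates 3 and 4. The labels used here give no sex, and both sexes were used in the study.

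After the filter on low counts, 83 of the 86 members were tested, 49 of the large and 34 of the small subunit. The 3 below the filter were paralogs. Rpl10l, which is known from testis, had 0 counts in each of the 8 libraries. Rpl39l, also known from male germ cells, had 0 to 3 counts per library in Control and 0 to 5 in treated mice. For Rpl36al the counts were 2 to 14 and 3 to 10, while Rpl36a was at 134 ± 24.2 and 106 ± 18.0 CPM (SD, n = 4 each).

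No gene passed an adjusted p of 0.05 in edgeR's quasi-likelihood test (0 of 17138, 0%), although 1132 genes were under an unadjusted p of 0.05. DESeq2 called 4 genes and limma-voom 0 at an adjusted p under 0.05. The adjusted p of members from edgeR lay between 0.657 and 0.944. The log2 fold change (TTI-101 minus Control) was below 0 in 83 of the 83 tested members, compared with 49.4% of all genes tested. Its median was -0.26 over members, equal to 0.835 times the Control level, with quartiles of -0.36 and -0.17 and a range from -1.02 to -0.06. The median over all genes was 0.00.

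At an unadjusted p under 0.05, 7 of 83 members were lower, where 3.58% of all genes were, and 0 were higher, where 3.02% of all genes were. The count of 7 depended on single mice. It was 24 without Control mouse 1, 1 without Control mouse 3, Control mouse 4 or treated mouse 3, 4 without treated mouse 1 or 4, and 2 with libraries scaled by their totals. The share of all genes lower at this threshold was not computed for these refits. Every treated mouse lay below every Control mouse for 0 members (1.43% of all genes) and above for 0 (1.53% of all genes). In 51 members all 4 treated mice lay below the Control mean, and in 27 members 3 of them did. No share over all genes was computed for these counts. Control mice 3 and 4 raised that mean, as both lay above Control mice 1 and 2 in 75 members (18.5% of all genes). For 69 of the 83 members, Control mice 3 and 4 were the highest 2 of the 8 libraries, a pattern counted after the values were seen and present in 8.21% of all genes.

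Large and small subunit genes had like medians. The median log2 fold change was -0.27 over the 49 large subunit genes, with 3 lower at an unadjusted p under 0.05, and -0.25 over the 34 small subunit genes, with 4 lower. The members also moved together from mouse to mouse. Over the 3403 pairs of members, the median Pearson correlation of log2 CPM across the 8 mice was 0.76, and 95.9% of pairs were above 0, a description of points that share their libraries.

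**Figure D2:**
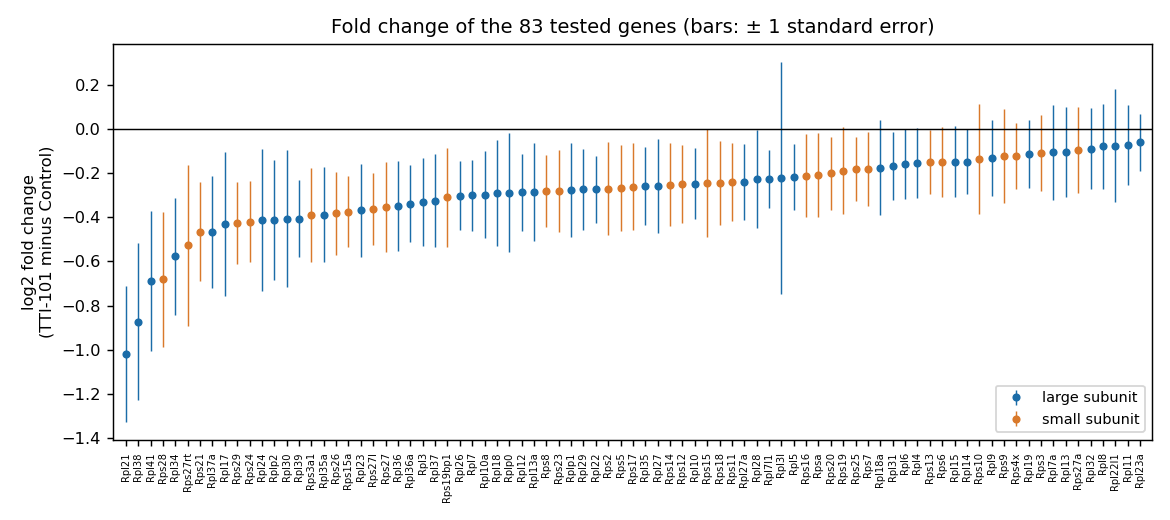
Log2 fold change (TTI-101 minus Control, y axis) of the 83 tested members in order of size (x axis), with bars of 1 standard error from edgeR, coloured by subunit. All points lie below 0, from -1.02 for Rpl21 to -0.06 for Rpl23a, and the subunits are intermixed.

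Rpl21 (ENSMUSG00000041453, chromosome 5, 146832890 to 146837032 on GRCm38), a large subunit protein, had the lowest fold change. Its level was 147, 219, 292 and 267 CPM in Control mice 1 to 4 and 65.8, 84.6, 138 and 169 CPM in treated mice 1 to 4. Only treated mouse 4 exceeded the lowest Control mouse. Its log2 fold change of -1.02 had a standard error (SE) of 0.31, and edgeR gave an unadjusted p = 0.0077 and an adjusted p = 0.657. Rpl21 has 15 rows named as its processed pseudogenes in the table, which held 41.4% of the counts of the gene and these rows together, so part of its reads may have been assigned there. With those rows added, Rpl21 was at 278, 318, 407 and 397 CPM in Control and at 196, 209, 245 and 248 CPM in treated mice. The summed groups, at 349.9 ± 62.5 and 225 ± 26.1 CPM (SD, n = 4 each), did not overlap, and Rpl21 was the only member for which this held after such sums. Without sums, every treated mouse lay below every Control mouse in 1.43% of all genes, so 1 such member does not set the members apart from other genes. The log2 fold change of the sum was -0.64 (SE 0.17, adjusted p = 0.656 from edgeR). This sum was chosen after the values were seen.

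Rpl38, whose promoter window with its tract is printed above, encodes a small large-subunit protein known for a role in translating Hox mRNAs. It was at 71.5, 153, 243 and 273 CPM in Control and 72.5, 113, 91.2 and 127 CPM in treated mice, with a log2 fold change of -0.87 (SE 0.36, adjusted p = 0.657 from edgeR). Control mouse 1 lay below each treated mouse, whereas Control mice 3 and 4 lay above each of them. Rpl39 lines the peptide exit tunnel. Its levels were 122, 137, 194 and 191 CPM in Control and 120, 110, 122 and 134 CPM in treated mice (log2 fold change -0.41, SE 0.17). Its groups overlapped at Control mouse 1. Rpl41, which encodes one of the shortest known proteins, was at 384, 606, 926 and 890 CPM in Control and 369, 637, 456 and 279 CPM in treated mice (log2 fold change -0.69, SE 0.32). It was not under an unadjusted p of 0.05, and treated mouse 2 lay above Control mouse 2.

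Among small subunit genes, Rps28, Rps29, Rps24 and Rps15a were lower at an unadjusted p under 0.05, each with an adjusted p of 0.657 from edgeR. Rps28 was at 80.4, 121, 202 and 234 CPM in Control and 73.8, 121, 94.6 and 109 CPM in treated mice (log2 fold change -0.68, SE 0.31). Rps29, a zinc-binding protein, was at 161, 159, 273 and 215 CPM and at 150, 141, 147 and 165 CPM (log2 fold change -0.42, SE 0.19). In both genes the Control mice were spread widely and the treated mice lay near Control mice 1 and 2. Rps24, which is mutated in some cases of Diamond-Blackfan anaemia, was at 453, 570, 713 and 729 CPM in Control and at 500, 490, 415 and 439 CPM in treated mice (log2 fold change -0.42, SE 0.18). For Rps15a the levels were 210, 253, 322 and 315 CPM in Control and 211, 215, 208 and 215 CPM in treated mice (log2 fold change -0.37, SE 0.16). The treated mice held Rps15a within 212 ± 3.64 CPM, against 275 ± 53.4 CPM in Control (SD, n = 4 each).

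The stalk proteins and the laminin receptor homologue also had their highest levels in Control mice 3 and 4. Rplp0, the scaffold of the stalk that recruits elongation factors and a common reference gene, was at 599, 852, 1144 and 1293 CPM in Control and 556, 1014, 892 and 723 CPM in treated mice (log2 fold change -0.29, SE 0.27). Rplp1 and Rplp2, its acidic partners, had log2 fold changes of -0.28 and -0.41. Rpsa, at 778 ± 149 and 674 ± 97.9 CPM (SD, n = 4 each), had -0.21. All 4 genes overlapped between the groups, with Control mice 3 and 4 highest.

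The following members had log2 fold changes nearer to 0 than the median of the group. Rps6, the substrate of S6 kinase, was at 559, 521, 636 and 666 CPM in Control and 585, 590, 531 and 445 CPM in treated mice (log2 fold change -0.15, SE 0.16). Rpl5 and Rpl11 bind Mdm2 together with 5S rRNA and had log2 fold changes of -0.22 and -0.07. The values of Rpl11 were 281, 269, 391 and 382 CPM in Control and 323, 359, 328 and 249.8 CPM in treated mice, so 3 of its 4 treated mice lay within the Control range. Rps27a, made as a fusion with ubiquitin, was at 220, 190, 196 and 201 CPM and at 189.8, 267, 142 and 156 CPM (log2 fold change -0.10). Rpl23a was at 157, 154, 159.8 and 189 CPM in Control and 158, 160.3, 173 and 142 CPM in treated mice, and its log2 fold change of -0.06 (SE 0.13) was the nearest to 0. Its 14 pseudogene rows held 16.4% of the counts of the gene and these rows together. With such rows added to each member, Rpl23a had -0.12, and Rpl11, at -0.07, was the nearest to 0. Of the exon bases of Rpl23a, 59.7% also belong to Tlcd1 on the opposite strand, and the strand setting of the counting is not given. Rpl8, near the peptidyl transferase centre, had -0.08, Rpl10, which is added late in subunit assembly, had -0.25, and the X-linked Rps4x had -0.12.

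**Figure D3:**
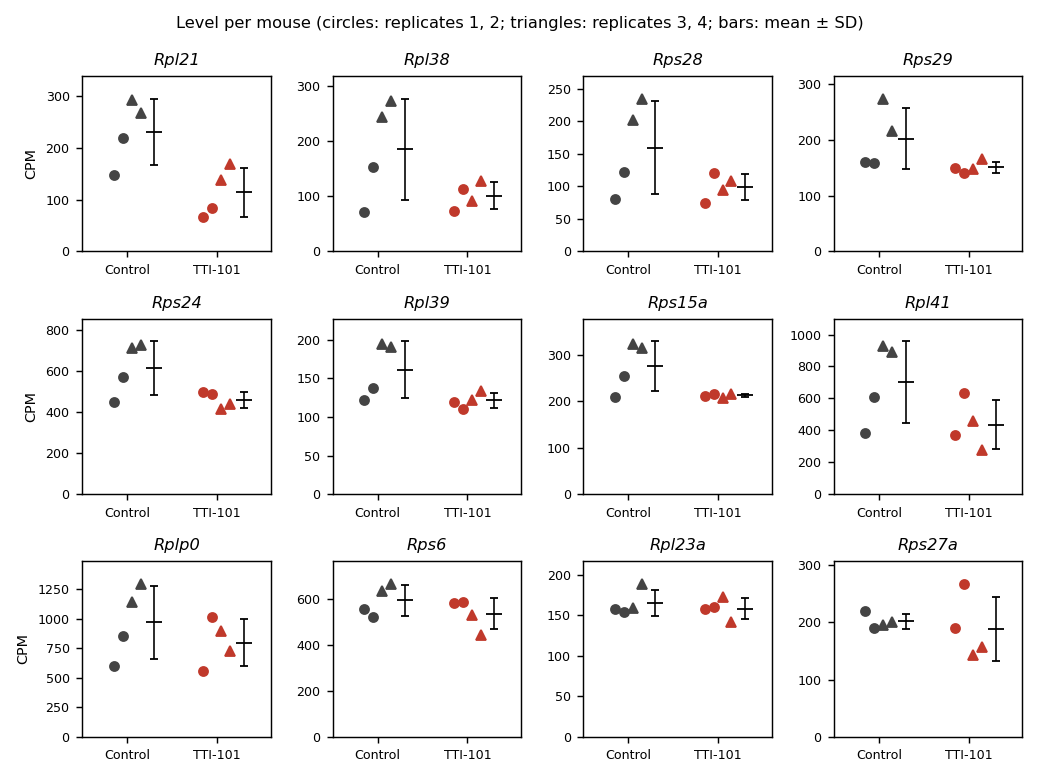
CPM (y axis, from 0) of 12 members in each mouse of the Control and TTI-101 groups (x axis), with circles for replicates 1 and 2, triangles for replicates 3 and 4, and the mean ± SD of 4 mice beside them. In Rpl38, Rps28 and Rpl41 the Control triangles lie above all other points, while Rpl23a and Rps27a show little separation.

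Paralogs were lower than their parents per kilobase of gene model. Rpl3l, the form of striated muscle, was at 0.434 CPM per kb in Control against 184 for Rpl3. Rpl22l1 was at 15.5 CPM per kb against 78.5 for Rpl22, and Rpl7l1 at 22.0 against 274 for Rpl7. Rps27l, a p53 target, was at 83.04 CPM per kb and the copy Rps27rt at 190 against 271 for Rps27. The log2 fold changes were -0.22 for Rpl3l (SE 0.53), -0.07 for Rpl22l1 (SE 0.26), -0.36 for Rps27l (SE 0.17), -0.53 for Rps27rt (SE 0.37) and -0.22 for Rpl7l1 (SE 0.13). In all 5 the groups overlapped.

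Per kilobase of gene model, members spanned a wide range of levels. The models of genes with standard names ran from 383 bases for Rpl36 to 6270 for Rps15a. These levels, their order and the medians therefore depend on the deposited gene length as well as on the counts. The Control median was 164 CPM per kb over the 46 large subunit genes with standard names, from 1.68 for Rpl24 to 1666 for Rplp1, and 245 over the 31 of the small subunit, from 1.73 for Rps10 to 970 for Rps3a1. In treated mice the medians were 131 and 206 CPM per kb. Other members among the 5 highest per kb of their subunit were Rpl36 at 562 and Rps15 and Rps14 at 733 and 424 CPM per kb in Control, with log2 fold changes of -0.35 (SE 0.20), -0.24 (SE 0.25) and -0.25 (SE 0.19). The order of the 77 genes was nearly the same in both groups (Spearman correlation of 0.984 across genes, as a description). The lowest values are uncertain. Of the exon bases of Rpl24, 47.0% also belong to another gene, Gm28037, on the same strand, and 96.5% of the counts of Rps10 with its pseudogenes lay in pseudogene rows. Rpl17 (72.4%) and Rps12 (31.3%) also had many counts in such rows. Over the whole group, 296 pseudogene rows for 60 members held 4.37% of the counts of the members and these rows together. Of the 70 such rows that were tested, 56 had a log2 fold change below 0 (median -0.23).

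Members with up to 300 coding bases had the lowest median fold change of 5 length classes. Across the 77 genes with standard names, the log2 fold change and the coding length had a Spearman correlation of 0.52, and with the deposited gene length, which includes all exons of the model, it was 0.16 (descriptions across genes, which are not independent). The median was -0.47 over the 10 tested members with up to 300 coding bases, then -0.28 over 29, -0.21 over 18 and -0.19 over 21 members in the classes up to 450, 600 and 900 bases. The 5 members over 900 bases had a median of -0.27 and did not continue this order. Among other protein-coding genes the median was -0.13 over 269 genes with up to 300 coding bases, with 67.3% below 0, then -0.08 over 678 and -0.05 over 858 genes in the next length classes, -0.01 over 2026 genes with 600 to 900 bases, and 0.02 over 10764 longer genes, with 46.5% below 0.

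The spread among Control mice followed coding length as well, with a Spearman correlation of -0.42 between the length and the ratio of the highest to the lowest Control mouse. The 9 shortest standard members (Rpl37, Rpl37a, Rpl38, Rpl39, Rpl41, Rps21, Rps27, Rps28 and Rps29) had median log2 deviations from their own mean of -0.45, 0.05, 0.67 and 0.54 in Control mice 1 to 4. In treated mice these were -0.35, -0.04, -0.24 and -0.14. The 24 members over 600 coding bases deviated by -0.13, -0.05, 0.26 and 0.33 in Control and by -0.10, 0.10, -0.01 and -0.31 in treated mice. Control mouse 1 and treated mouse 1 were thus low mainly in the short members, and treated mouse 4 mainly in the long ones. With a trend on deposited gene length removed from each library, 81 of 83 members remained below 0, with a median of -0.24. No trend on coding length was removed, so this fit does not address the relation with coding length. What part fragment length or RNA quality has in this relation was not tested. Members with such a pyrimidine tract within 5 bases of the annotated start had a median log2 fold change of -0.28 (n = 30). Those without one there had -0.24 (n = 33). This split rests on the annotated start and does not separate TOP mRNAs from others.

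**Figure D4:**
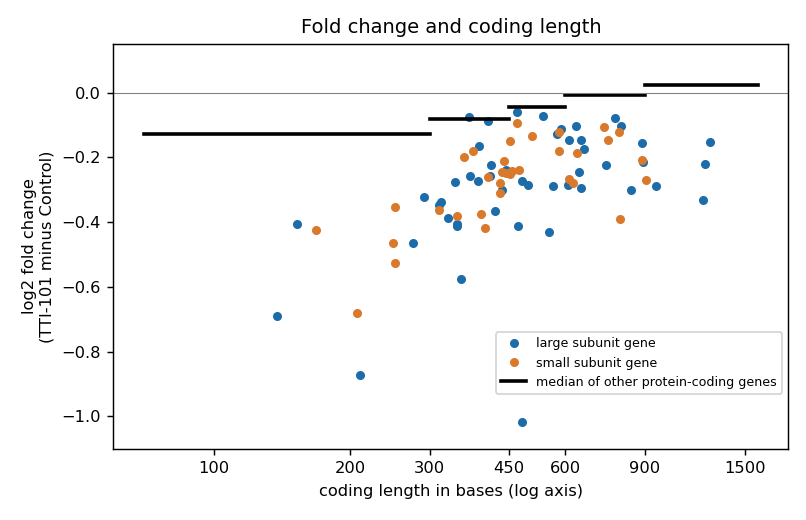
Log2 fold change (TTI-101 minus Control, y axis) of tested members against coding length in bases (x axis, log scale), coloured by subunit, with black lines at the medians of other protein-coding genes in 5 length classes. The members with up to 300 coding bases have a median of -0.47 against -0.13 for other genes of that length, and the point at -1.02 is Rpl21.

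The comparison was repeated within the Xist classes, which are defined by the measured RNA and hold 2 mice of each group. This split was chosen after the values were seen, with Control mice 3 and 4 already known to be highest. In 69 members these 2 mice were the highest of all 8, so a fold change below 0 with low Xist follows there. Members vary together over the same mice, so the counts of members below are descriptions and not independent results. With high Xist the mean member share was 2.56% in Control and 2.67% in TTI-101-treated mice, and with low Xist it was 3.36% and 2.43%. In 1 edgeR fit with both classes, the median log2 fold change over members was 0.06 with high Xist, where 25 of 83 were below 0 (50.2% of all genes), and -0.55 with low Xist, where 83 of 83 were below 0 (49.1% of all genes). The fold change was more negative with low Xist in 82 of 83 members, compared with 49.2% of all genes. By the interaction term, 13 members had an unadjusted p under 0.05 in that direction, where 3.22% of all genes did, and 0 members passed the adjustment (smallest adjusted p = 0.745 from edgeR). Rpl41 had 0.02 with high and -1.31 with low Xist, and Rpl30 had 0.31 and -0.89. The exception was Rpl21, with -1.28 and -0.87. Control mice 3 and 4 are the Control mice of the class with low Xist, so sex, if Xist marks it, and the level of these 2 mice cannot be told apart.

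**Figure D5:**
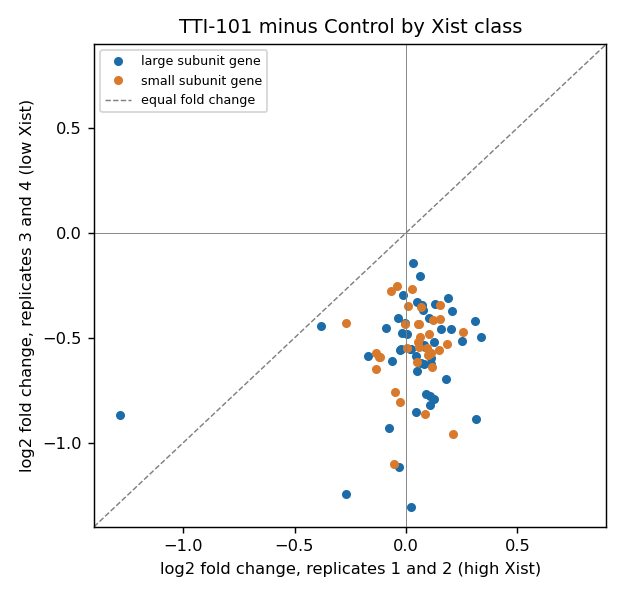
Log2 fold change (TTI-101 minus Control) of the 83 tested members in replicates 3 and 4 with low Xist (y axis) against replicates 1 and 2 with high Xist (x axis), with 2 mice per group in each class and a dashed line of equal change. The members lie around 0 on the x axis and below 0 on the y axis, and Rpl21 is the point at the far left, above the line.

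Other genes of ribosome function had smaller median fold changes, and 0 of them passed the adjustment. Of 19 further translation genes known for TOP tracts, such as Tpt1 and Eef1b2, 17 were below 0 (median -0.11) and 0 had an unadjusted p under 0.05 in either direction. Of 26 initiation factors 17 were below 0 (median -0.09), with 0 under 0.05 in either direction. Mitochondrial ribosomal proteins, which serve another ribosome, had a median of -0.09, with 59 of 77 below 0 and 2 lower at an unadjusted p under 0.05 (Mrpl39 and Mrps25).

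Genes that build ribosomes were centred on 0. The 49 assembly factors had a median of -0.01 with 27 below 0, and the 15 genes of RNA polymerase I and rRNA transcription one of 0.00 with 7 below 0. At an unadjusted p under 0.05, 1 assembly factor was higher, Nle1, at 8.03 ± 0.735 and 11.1 ± 1.97 CPM (log2 fold change 0.46). Among 18 genes of mTORC1 and TOP control (median 0.01, with 8 below 0), the mTOR inhibitor Deptor was lower (log2 fold change -0.39), while Larp1 was at 132 ± 27.8 and 132 ± 14.5 CPM. Of 14 genes of the response from ribosomal proteins through Mdm2 to p53 (median -0.11, with 9 below 0), 1 was higher. This was Trp53, at 46.4 ± 6.43 CPM in Control and 65.3 ± 12.2 CPM in treated mice (SD, n = 4 each), with a log2 fold change of 0.49 (SE 0.17, adjusted p = 0.657 from edgeR). Its targets went both ways. Mdm2 and Cdkn1a, among the 9 genes below 0, had -0.19 and -0.12, whereas Sesn1, Phlda3, Bbc3 and Bax had 0.28, 0.21, 0.12 and 0.07. The 2022 other protein-coding genes with at least 100 CPM in Control had a median of -0.01, with 51.4% below 0. The part of abundance in the members' values was not tested.

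Markers of several lung cell types varied between the groups beside the ribosomal protein genes, none past the adjustment, and their part in the result was not tested. No marker that passed the filter was at 0 in any library. Summed club cell markers were at 19220, 34200, 44820 and 46590 CPM in Control and 19360, 29940, 22980 and 16930 CPM in treated mice, with Control mice 3 and 4 highest as for the members (6 of 6 genes below 0, 2 at an unadjusted p under 0.05). Ciliated cell markers ranged from 343 to 1003 CPM in Control and from 293 to 665 CPM in treated mice (9 of 9 below 0, 5 under 0.05). Alveolar type 2 markers ranged from 41730 to 74200 and from 32690 to 59230 (8 of 8 below 0, 0 under 0.05). Markers of cycling cells ranged from 69.0 to 167 and from 49.1 to 80.0 (9 of 9 below 0, 6 under 0.05). These lists did not have Control mice 3 and 4 highest. Control mouse 3 was at 604 CPM for ciliated and 49540 CPM for alveolar type 2 markers, below treated mouse 2 at 665 and 59230 CPM. For cycling cells it was at 81.8 CPM, below Control mouse 2 at 103 CPM. B cell markers, in contrast, ranged from 124 to 345 CPM in Control and from 293 to 603 CPM in treated mice (10 of 10 above 0 at an unadjusted p under 0.05). Red cell markers ranged from 59.1 to 265 and from 207 to 1593 (5 of 6 higher), and endothelial markers from 1224 to 3792 and from 2890 to 4987 (0 of 8 under 0.05). Of T cell, alveolar macrophage and fibroblast markers, 0 of 11, 0 of 8 and 0 of 8 were below 0. Alveolar type 1 and neutrophil markers had 1 of 7 below 0 each. In these lists 1 T cell marker was higher at an unadjusted p under 0.05 and 0 of the others.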

How the data were processed

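Poly(A) RNA of 8 whole lungs was made into libraries with a stranded TruSeq kit and sequenced as paired ends by Novogene. The authors deposited whole-number counts per Ensembl gene with no normalization, beside gene coordinates, biotypes and lengths. The submitters' processing notes name STAR, DESeq2 and mm10. The counting tool and its strand setting are not given in the sources used here. Of the 54532 genes, 53548 had the same chromosome, start and end in GENCODE M21.

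In R 4.3.3, edgeR 4.0.16 with filterByExpr (minimum count of 10), TMM and robust quasi-likelihood F-tests compared the groups over 17138 genes, with Benjamini-Hochberg adjustment. The prior count for log2 CPM was 2. Limma 3.58.1 and DESeq2 1.42.0 gave alternatives, and figures and sequence searches used Python 3.11.15. The fits were tested on simulated data. The range of total counts sets the counting precision. Each mouse gave 1 library, and the p-values test the difference between groups against the spread between mice. Coding lengths came from GENCODE M21.

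Members named singly were those under an unadjusted p of 0.05, the 4 highest and 4 lowest fold changes, the 5 most abundant per kb of each subunit, chosen members with known roles, and paralogs with their parents, 37 in all. From the other lists, up to 3 genes under 0.05 were named. Rpl30, Larp1, Mdm2, Cdkn1a, Sesn1, Phlda3, Bbc3, Bax, Tpt1, Eef1b2 and members given for pseudogene rows or exon overlap were named after their values were seen. Members and lists were chosen with earlier results of these data known. The list of ribosomal proteins under other names is not reported here.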

Additional observations from a re-analysis of the deposited data

Results flagged for a closer look

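In 76 sets of 4 mice, formed from library measures and named members, 3 had a mouse whose gap to its nearest neighbour, as a share of the group's range, exceeded Dixon's critical value. Chance gives about 3.8. The share of mitochondrial counts of Control mouse 4 (5.56%) had a ratio of 0.867. The total of Control mouse 1, 26873509 counts, had a ratio of 0.83. Rpl23a in Control mouse 4, at 189 CPM against 154 to 159.8 CPM in the other Control mice, had a ratio of 0.839.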

How the results depend on the processing

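The median log2 fold change over members stayed below 0 under each alternative that kept mice of both Xist classes, from -0.37 without Control mouse 1 to -0.16 without Control mouse 4. The count of members below 0 was 77 to 83 with 1 mouse left out. The number of members lower at an unadjusted p under 0.05, 7 with all mice, was 2 with library totals in place of TMM and ranged from 1 to 24 with 1 mouse left out. It was 24 without Control mouse 1, 1 without Control mouse 3, Control mouse 4 or treated mouse 3, and 4 without treated mouse 1 or treated mouse 4. For these fits the share of all genes lower at this threshold was not computed. The number of genes past an adjusted p of 0.05 was 4 in DESeq2, 1 with Xist as a covariate, and 0 to 1 with 1 mouse left out. The cause of these differences was not tested.

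With the mice of high Xist alone, an alternative chosen after seeing the data, 1 member was lower at an unadjusted p under 0.05, 25 were below 0, the medians were 0.059 over members, 0.066 over large and 0.054 over small subunit genes, and the share of counts differed by 0.104 percentage points. With low Xist alone these were 24 members lower, medians of -0.56, -0.56 and -0.55, and a difference of -0.93. Among single members, the fold change with 1 mouse left out crossed 0 for 9, ranging from -0.22 to 0.0074 for Rpl13, from -0.16 to 0.020 for Rpl8, from -0.17 to 0.00463 for Rps3, from -0.15 to 0.026 for Rpl11, from -0.20 to 0.078 for Rpl32, from -0.30 to 0.020 for Rps27a, from -0.10 to 0.022 for Rpl23a, from -0.20 to 0.17 for Rpl7a and from -0.26 to 0.13 for Rpl22l1. With the trend on gene length removed, Rpl32 was at 0.00121 and Rpl23a at 0.022.

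Replicates with the same number in both groups had correlations of their deviations over all genes of 0.393, 0.082, 0.159 and 0.071. Those with unlike numbers ranged from -0.421 to 0.167. Over the members alone the same numbers gave 0.564, 0.127, 0.219 and 0.159, and unlike numbers -0.539 to 0.447. Xist class also went by number, and so did totals, at 26873509 and 25920509 counts for replicate 1 and 16075855 to 18220467 for the others. The labels name no pairs, so the main fit did not pair mice. Whether the numbers mark shared handling was not tested. With a replicate block, 5 members were lower at an unadjusted p under 0.05, 0 genes passed the adjustment and the median was -0.24. Rpl10l, Rpl39l and Rpl36al had too few counts to be compared.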

Other observations

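A few members had a low correlation with the mouse-to-mouse pattern of the others. Across the 8 mice, the Pearson correlation with the mean of the members was -0.03 for Rpl3l, -0.01 for Rps10, 0.25 for Rpl22l1, 0.31 for Rps27a and 0.36 for Rps27 (a description of 8 points). Rpl3l had 7 to 36 counts per library and Rps10 51 to 122. Summed with its pseudogene rows, which hold 96.5% of these counts, Rps10 was at 79.5, 124, 137 and 146 CPM in Control and 79.7, 127, 125 and 99.3 CPM in treated mice. Rps27, a zinc-binding protein of the small subunit, was at 225, 285, 337 and 282 CPM in Control and 239, 184, 168 and 292 CPM in treated mice, so treated mouse 4 was above 3 of the 4 Control mice. Rps27rt, an intronless copy with a near-identical parent, was at 45.8, 33.2, 87.6 and 117 CPM and at 50.8, 40.6, 69.6 and 35.5 CPM. Rpl21-ps15, a row for a pseudogene of Rpl21, was at 119, 82.8, 101 and 115 CPM in Control and 118, 109.7, 93.4 and 71.7 CPM in treated mice. Its log2 fold change was -0.09 (SE 0.18), against -1.02 for Rpl21.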
